A study of Mus musculus with 9 samples.

Results

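Cxcl10 and Cxcl11 encode chemokines that bind the receptor CXCR3, and their mRNA was followed in 9 poly(A) RNA-seq libraries of RAW264.7 cells, a mouse macrophage-like line. The rows were taken by gene symbol, 2 of 12467 distinct gene names in the files, and the pair was chosen for its levels in all 3 groups of the study, so those levels are given as a description without a test. Cells of the I group were polarized with 100 ng/ml of LPS (bacterial lipopolysaccharide) and 50 ng/ml of mouse interferon gamma with potassium iodide added at 20 mM. The M1 group received LPS and interferon gamma at those doses without iodide, and the Mock group received neither. Each group has 3 libraries, and all come from 1 wild-type cell line grown in DMEM with serum. The length of the treatment is not given in the sources used here, and no group received another potassium or sodium salt, so effects of iodide cannot be told apart from those of potassium or osmolarity. Separate cultures are not mentioned in the labels, and the p-values thus reflect spread among libraries that may be technical. In bulk RNA of this kind, fewer expressing cells and less RNA per cell cannot be told apart.

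CXCL9, CXCL10 and CXCL11 form the interferon-inducible branch of the CXC chemokines. They draw activated T cells and natural killer cells, which carry CXCR3, towards inflamed tissue. Interferon gamma switches on their genes, and CXCL10 is also switched on by LPS through the adaptor TRIF, the factor IRF3 and secreted interferon beta, with a further input from NF-kB. Macrophages are a main source of all of them.

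Both genes lie on the minus strand of chromosome 5 in the GRCm38 build, next to each other and to Cxcl9. Cxcl10 (ENSMUSG00000034855.13) spans 92346638 to 92348889, Cxcl11 (ENSMUSG00000060183.6) spans 92359544 to 92365485, and 10654 bases separate them. GENCODE vM21 lists Cxcl11 as a polymorphic pseudogene, because the C57BL/6 mouse of the reference genome carries a broken copy. RAW264.7 comes from a BALB/c mouse. Only RNA was measured here, so the values say nothing of the protein. The promoter windows below come from RefSeq on GRCm38.p6. They run from 250 bases before the start site to 50 after it and were searched for interferon, NF-kB and other motifs. They are Cxcl10 at chr5:92348840-92349139 and, for comparison, Cxcl9 at chr5:92328030-92328329, both minus strand. Capitals mark exact matches on either strand to the interferon-stimulated response element (ISRE) core (GAAA, any 2 bases, GAAA), the kB letters (GGGA, any 4 bases, CC), the AP-1 letters TGANTCA and the TATA box TATAAA.
Cxcl10: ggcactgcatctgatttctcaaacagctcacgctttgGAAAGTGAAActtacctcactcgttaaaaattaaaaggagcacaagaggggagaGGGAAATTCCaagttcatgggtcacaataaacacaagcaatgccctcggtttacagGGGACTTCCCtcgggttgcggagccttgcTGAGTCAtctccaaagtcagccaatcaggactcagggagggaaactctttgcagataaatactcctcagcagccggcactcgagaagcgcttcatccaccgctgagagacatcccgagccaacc
Cxcl9: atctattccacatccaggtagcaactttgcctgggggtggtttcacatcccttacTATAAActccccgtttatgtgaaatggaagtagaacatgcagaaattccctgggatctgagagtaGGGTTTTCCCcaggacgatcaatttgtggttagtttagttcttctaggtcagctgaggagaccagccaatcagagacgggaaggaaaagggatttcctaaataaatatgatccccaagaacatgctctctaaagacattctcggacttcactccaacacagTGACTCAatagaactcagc

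The Cxcl10 window held 1 ISRE core (GAAAGTGAAA, starting 213 bases upstream of the start site), 2 kB matches (GGGAAATTCC at 159 and GGGACTTCCC at 103) and 1 AP-1 match (TGAGTCA at 74). None of these matches overlapped another. Across all 32851 promoter windows of that length, 3.44% held the ISRE core, 20.7% the kB letters and 7.81% the AP-1 letters. The Cxcl9 window held 1 kB match (GGGTTTTCCC), 1 AP-1 match downstream of the start site and no ISRE core. It also held the letters TATAAA, 195 bases upstream of the start site, and 13.6% of all windows held these letters. The interferon gamma-activated (GAS) letters TTCNNNGAA, present in 8.3% of windows, were in neither. A match describes letters only and is not evidence of binding, and the window for Cxcl11 is not analysed here.

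Cxcl10 was high with iodide and in untreated cells, and low after LPS and interferon gamma alone. Its level, in fragments per kilobase of exon scaled to library size (FPKM), was 87.8, 87.8 and 88.5 in the I libraries, 13.9, 14.4 and 14.2 in the M1 libraries, and 79.2, 78.3 and 84.1 in the Mock libraries. All 3 M1 libraries lay far below the other 6, and the I libraries lay just above the Mock libraries without overlap. The group means were 88.0 ± 0.387 FPKM in I, 14.2 ± 0.229 in M1 and 80.5 ± 3.1 in Mock (SD, n = 3 each, as below). The I mean was 6.2 times the M1 mean and 1.09 times the Mock mean, and the Mock mean was 5.67 times the M1 mean. On the log2(FPKM + 1) scale M1 minus Mock was −2.42 ± 0.03 and I minus M1 was 2.55 ± 0.03 (SE of the linear model). The difference between I and Mock was small by comparison, 0.13 ± 0.03 on that scale, and its size depends on the scaling, with 0.49 after median-of-ratios (RLE) scaling and 0.04 after quantile scaling. Among 11156 genes tested, Cxcl10 ranked 481 by mean FPKM in I, 3097 in M1 and 490 in Mock.

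Cxcl11 followed another course, lowest in Mock, higher in M1 and highest in I. It was at 74.6, 70.7 and 71.8 FPKM in the I libraries, 18.9, 20.2 and 20.0 FPKM in the M1 libraries, and 2.1, 2.54 and 1.93 FPKM in the Mock libraries. The 3 groups were far apart, with no overlap between any of them. Means were 72.4 ± 1.98 FPKM in I, 19.7 ± 0.706 in M1 and 2.19 ± 0.314 in Mock. The I mean was 3.67 times the M1 mean and 33.0 times the Mock mean, and the M1 mean was 9.0 times the Mock mean. On the log2(FPKM + 1) scale I minus M1 was 1.82 ± 0.061, M1 minus Mock 2.70 ± 0.061 and I minus Mock 4.53 ± 0.061. In the order of all 11156 tested genes by I minus M1, Cxcl10 stood at rank 5 from the top and Cxcl11 at rank 13. By M1 minus Mock, Cxcl11 stood at rank 84 from the top and Cxcl10 at rank 126 from the bottom.

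**Figure D1:**
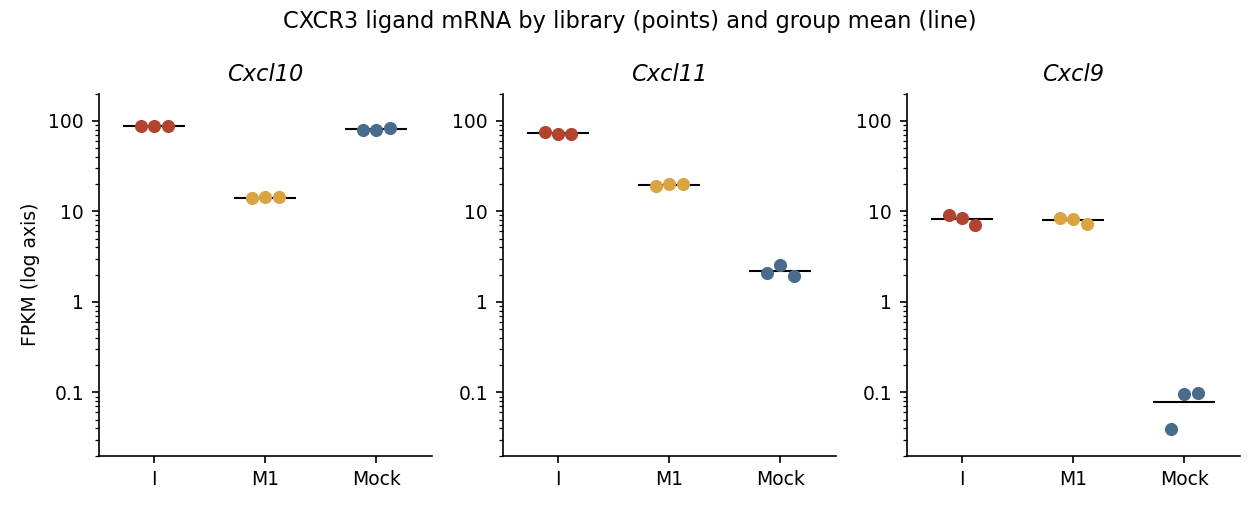
FPKM on a log axis of Cxcl10, Cxcl11 and the third CXCR3 ligand gene Cxcl9 in each library (points) with the group mean (line), for I, M1 and Mock. Cxcl10 dips in M1, Cxcl11 is highest in I and lowest in Mock, and Cxcl9 is alike in I and M1 and near 0 in Mock.

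The counts behind these values were large for Cxcl10 and smaller for Cxcl11 in Mock. Fragment numbers recovered from the FPKM were 3633 to 4190 for Cxcl10 in I, 570 to 709 in M1 and 3075 to 4544 in Mock. For Cxcl11 they were 4928 to 5997 in I, 1347 to 1680 in M1 and 148 to 203 in Mock. The Cxcl11 values in Mock therefore carry the widest counting error of the 6 group means. Of the 2252 annotated exon bases of Cxcl10, 133 (5.91%) are shared with Art3 on the plus strand. Of the 3794 exon bases of Cxcl11, 1582 (41.7%) are shared with the pseudogene Gm2673 on the plus strand. Neither Art3 nor Gm2673 is among the measured genes. Whether the authors counted by strand is not given in the sources used here. Reads in the shared bases thus cannot be assigned between members and partners, and may have been counted or left out.

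The balance between the 2 chemokine mRNAs differed between the groups. Per length, the ratio of Cxcl10 to Cxcl11 was 1.18, 1.24 and 1.23 in the I libraries, 0.737, 0.711 and 0.713 in the M1 libraries, and 37.7, 30.8 and 43.5 in the Mock libraries. By these values Cxcl10 made up nearly all of the pair in untreated cells, Cxcl11 was the higher in M1, and the levels were close with iodide. The exon bases shared with other genes, 41.7% for Cxcl11 and 5.91% for Cxcl10, could shift these ratios, and this was not tested. The FPKM divide by all annotated exons, 2252 bases for Cxcl10 and 3794 for Cxcl11, which include retained introns. With the principal transcripts of 1094 and 1581 bases instead, an alternative chosen after the data had been seen, the ratio was 1.01 to 1.07 in I, 0.61 to 0.633 in M1 and 26.5 to 37.3 in Mock. The order of the groups was the same with both lengths.

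**Figure D2:**
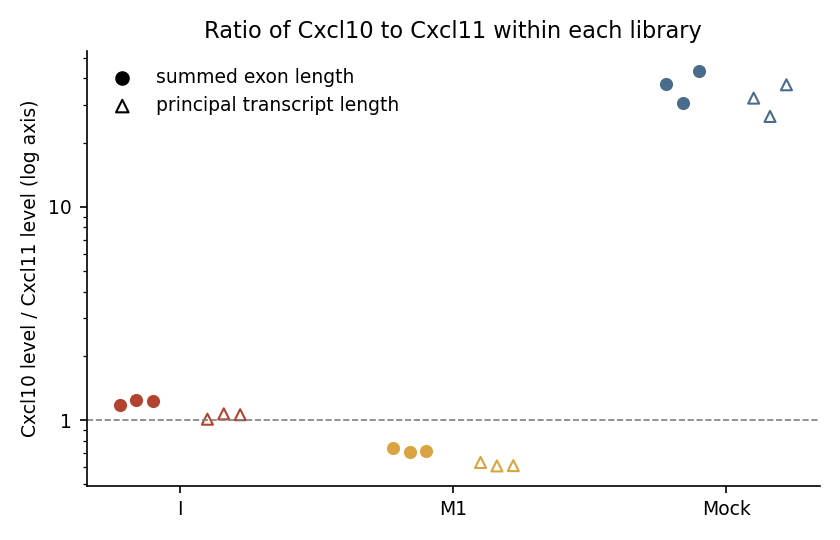
Ratio of Cxcl10 to Cxcl11 within each library, on a log axis, for I, M1 and Mock, with levels per summed exon length (filled circles) and per principal transcript length (open triangles). The dashed line marks equal levels; M1 libraries lie below it, I libraries at or just above it and Mock libraries far above it.

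Among the other 9 genes of the CXCR3 axis list (ligands, receptors, proteases and a binding partner), 4 are in the files and were tested with limma across all genes (Benjamini-Hochberg adjusted p). In M1 vs Mock 3 rose and 1 fell, where 30.5% of all tested genes rose and 55.3% fell. Between I and M1 1 rose and 1 fell, against 24.9% and 39.3% of all genes, and between I and Mock 3 rose and 1 fell, against 28.2% and 58.6%. In either direction 85.8% of tested genes were called in M1 vs Mock, 64.2% in I vs M1 and 86.8% in I vs Mock, so a single call carries little weight here. The third ligand gene, Cxcl9, was at 9.02, 8.54 and 7.07 FPKM in the I libraries, 8.4, 8.22 and 7.15 FPKM in M1, and 0.0391, 0.0951 and 0.0986 FPKM in Mock. The M1 values lay within the range of the I values, while Mock was close to silent with 3 to 6 fragments a library. Cxcl9 rose in M1 by 3.05 ± 0.083 on the log2(FPKM + 1) scale (limma adjusted p = 3.29e-11), although it passed the filter on low values only through the groups where it is high. For I minus M1 it was 0.04 ± 0.083 (adjusted p = 0.669).

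Cxcr3, which encodes the receptor of all 3 ligands, was at 2.92, 3.71 and 4.29 FPKM in I, 3.05, 3.8 and 3.32 FPKM in M1, and 1.93, 1.72 and 2.12 FPKM in Mock. It rose in M1 over Mock by 0.58 on the log2 scale (adjusted p = 0.000295), and I minus M1 was 0.07 (adjusted p = 0.562). Sdc4, a heparan sulfate proteoglycan known to bind CXCL10, had a mean of 189 ± 3.74 FPKM in I, 154 ± 3.15 in M1 and 114 ± 1.77 in Mock. It rose in M1 vs Mock (adjusted p = 2.17e-08) and again in I vs M1 (adjusted p = 2.9e-06). Mmp9, a gelatinase that can cut CXCR3 ligands, took the opposite course, with 1.73 ± 0.0838 FPKM in I, 9.83 ± 0.418 in M1 and 19.0 ± 0.56 in Mock. It fell in M1 vs Mock (adjusted p = 4.61e-09) and fell by 1.99 on the log2 scale in I vs M1 (adjusted p = 1.13e-10).

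Within 200 kb of Cxcl10 or Cxcl11 the annotation holds 12 protein-coding or polymorphic genes, of which 8 are in the files, the 2 members and 6 others. Of those 6, Sdad1, which takes part in ribosome assembly, and Nup54, a nuclear pore subunit, rose in I vs M1. Over all tested genes 24.9% rose in that comparison as deposited, and 64.2% were called in either direction. With RLE scaling Uso1 also rose (0.11, limma adjusted p = 0.0456), as did 3511 of the 11156 tested genes. Sdad1 was at 11.4 ± 0.211 FPKM in I and 8.98 ± 0.674 in M1 (log2 difference 0.32, limma adjusted p = 0.00013). Nup54 was at 9.77 ± 0.326 FPKM in I and 8.44 ± 0.329 in M1 (0.19, adjusted p = 0.0027). Both differences were far smaller than those of the members. For Uso1, Naaa, Cxcl9 and Scarb2 the differences were 0.03, 0.04, 0.04 and −0.03 with adjusted p of 0.543, 0.726, 0.669 and 0.517. In M1 vs Mock, Cxcl9 rose and Uso1, Naaa, Sdad1 and Nup54 fell by 1.05 to 1.16 on the log2 scale. Among all tested genes 30.5% rose and 55.3% fell there. Scarb2, a lysosomal membrane protein gene, was lower by 0.08 (adjusted p = 0.0267), a direction that turned to 0.19 after RLE and 0.11 after quantile scaling, and the call was lost without M1 replicate 2 or 3 or Mock replicate 2 or 3 (adjusted p = 0.0523 to 0.0878). Cxcl10 was thus lower in M1 than in Mock while Cxcl9 and Cxcl11, on either side of it, were higher.

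**Figure D3:**
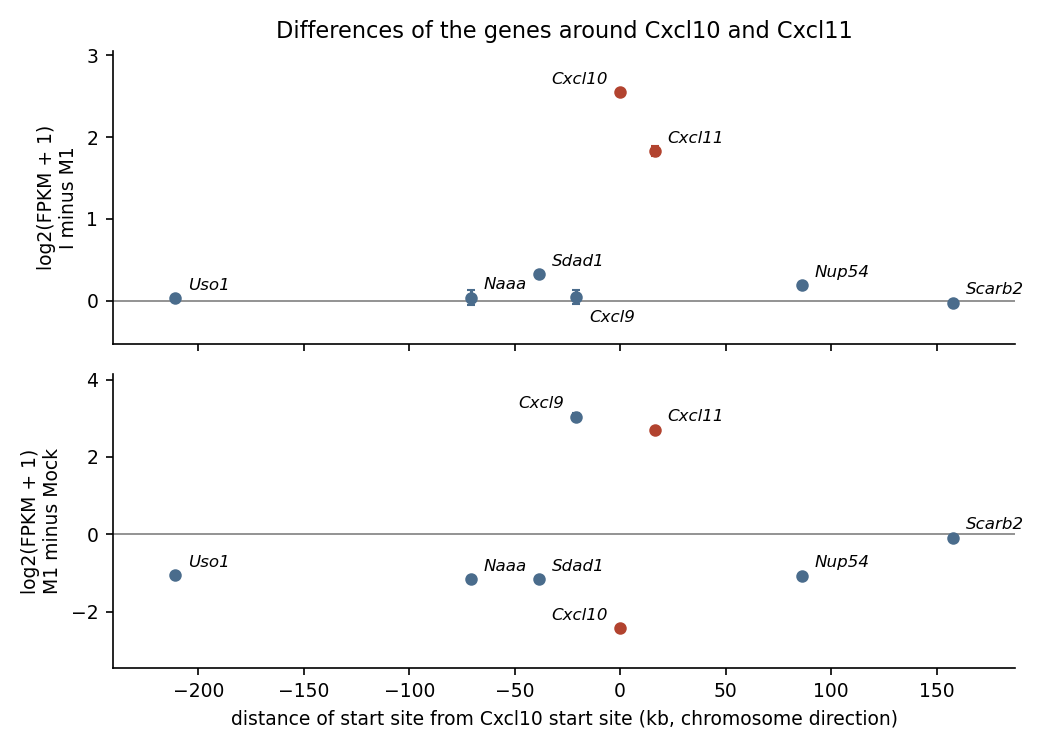
Differences on the log2(FPKM + 1) scale (points, with SE bars often smaller than the point) for the measured genes around Cxcl10 and Cxcl11, by distance of each start site from that of Cxcl10. The upper plot shows I minus M1, where Cxcl10 (2.55) and Cxcl11 (1.82) stand above neighbours at −0.03 to 0.32. The lower plot shows M1 minus Mock, where Cxcl10 lies at −2.42 between Cxcl9 at 3.05 and Cxcl11 at 2.70.

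Upstream of these genes, components of interferon gamma signalling rose more often than they fell in M1, 7 and 4 of 12 tested. Over all tested genes 30.5% rose and 55.3% fell in that comparison. With iodide (I vs M1) 6 rose and 3 fell, beside 24.9% and 39.3% of all tested genes, and with RLE or quantile scaling 1 fell. The interferon gamma receptor chain Ifngr1 had 8.97 ± 0.254 FPKM in I, 6.95 ± 0.0923 in M1 and 18.2 ± 0.327 in Mock. It fell in M1 vs Mock (log2 difference −1.27, adjusted p = 2.88e-11) and rose in I vs M1 (0.33, adjusted p = 1.07e-05). The kinase gene Jak2 had 46.2 ± 1.92 FPKM in I, 32.6 ± 1.61 in M1 and 18.5 ± 0.333 in Mock, rising in both steps (adjusted p = 6.74e-09 in the M1 comparison and 2.01e-06 in the iodide comparison). Irf1, an interferon-induced transcription factor, had 43.7 ± 0.436 FPKM in I, 36.5 ± 0.343 in M1 and 14.1 ± 0.312 in Mock. It rose in M1 by 1.31 (adjusted p = 3.5e-12) and in I vs M1 by 0.25 (adjusted p = 1.11e-05).

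Ifnb1, which encodes interferon beta, fell in M1. It was at 0.314, 0.435 and 0.139 FPKM in the I libraries, 0.603, 0.061 and 0.0751 FPKM in M1, and 6.33, 6.04 and 5.09 FPKM in Mock. All Mock libraries lay above all others, and I and M1 overlapped. M1 minus Mock was −2.48 on the log2(FPKM + 1) scale (limma adjusted p = 2.95e-08), and I minus M1 was 0.08 (adjusted p = 0.669) at 1 to 9 fragments a library. Ifnb1 passed the filter on low values through the Mock libraries, where it is high, and had at least 0.5 FPKM in only 1 other library. Cxcl10 and Ifnb1 were therefore alike in being lower in M1 than in Mock, and unlike in I, where Cxcl10 was high and Ifnb1 was low. In the type I interferon signalling list 5 of 9 tested genes rose and 4 fell in M1 vs Mock. Between I and M1 2 rose and 5 fell, and 3 fell with RLE scaling. Among all tested genes 30.5% rose and 55.3% fell in M1 vs Mock, and 24.9% and 39.3% in I vs M1. The LPS receptor gene Tlr4 had 5.51 ± 0.434 FPKM in I, 7.23 ± 0.615 in M1 and 31.1 ± 0.632 in Mock, a fall in M1 vs Mock (adjusted p = 9.38e-11) and in I vs M1 (adjusted p = 0.000621). Of the 11 tested genes from TLR4 to IRF3, 4 rose and 5 fell in M1 vs Mock. With iodide 2 rose and 4 fell, and 1 rose when I replicate 1 or 3 or M1 replicate 2 or 3 was left out. Calls in either direction made up 81.8% and 54.5% of these 11 genes, below 85.8% and 64.2% of all tested genes. The kinase gene Ikbke, which acts on IRF3, fell in I vs M1, with 13.9 ± 0.352 FPKM in I and 20.2 ± 0.24 in M1 (adjusted p = 1.6e-07).

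NF-kB genes moved in both directions with iodide. Of 14 tested, 7 rose and 4 fell in M1 vs Mock (11 and 2 with RLE scaling). Iodide was accompanied by 5 rises and 6 falls. Calls in either direction made up 78.6% of the list in both comparisons. Over all tested genes they made up 85.8% in M1 vs Mock and 64.2% in I vs M1. The inhibitor-like gene Nfkbiz had 116 ± 2.14 FPKM in I, 79.2 ± 0.571 in M1 and 14.9 ± 0.515 in Mock, rising in both steps (adjusted p = 9.28e-14 and 7.14e-08). The subunit gene Nfkb2 fell in I vs M1, with 17.0 ± 0.393 FPKM in I and 31.3 ± 1.19 in M1 (adjusted p = 9.26e-09), while Rel rose, with 25.8 ± 0.663 FPKM in I and 20.3 ± 0.986 in M1 (adjusted p = 3.84e-05).

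Other genes known as interferon targets were described in the same way. Of 22 tested genes known to be induced by interferon gamma, 13 rose and 6 fell in M1 vs Mock. Between I and M1 4 rose and 13 fell, with a median log2 difference of −0.15 beside −0.065 for all tested genes. Among all tested genes 30.5% rose and 55.3% fell in M1 vs Mock, and 24.9% and 39.3% in I vs M1. Gbp2, an antimicrobial GTPase gene, had 60.2 ± 1.22 FPKM in I, 72.9 ± 2.94 in M1 and 4.63 ± 0.259 in Mock (adjusted p = 4.23e-14 for M1 over Mock and 0.000166 for I against M1). Gbp5 had 16.3 ± 0.347 FPKM in I, 27.9 ± 0.603 in M1 and 3.15 ± 0.114 in Mock (adjusted p = 1.07e-13 and 3.21e-08). Both rose in M1, as Cxcl11 was higher there, and fell with iodide, where Cxcl11 was higher. Irgm2 was among the 4 that rose in I vs M1, with 20.1 ± 0.116 FPKM in I, 11.6 ± 0.301 in M1 and 44.0 ± 0.728 in Mock (adjusted p = 5.53e-13 for M1 against Mock and 6.73e-09 for I against M1).

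Of 30 tested genes known to be induced by type I interferon, 25 fell and 5 rose in M1 vs Mock, with a median of −1.02 beside −0.232 for all genes. With iodide 18 rose and 7 fell, with a median of 0.16. The shares over all tested genes were 30.5% up and 55.3% down in M1 vs Mock, and 24.9% and 39.3% in I vs M1. Cmpk2, Mx2 and Ifit1 had the course of Cxcl10 in direction, with smaller differences between I and M1. Cmpk2, a mitochondrial nucleotide kinase gene, had 81.0 ± 1.39 FPKM in I, 43.8 ± 0.137 in M1 and 185 ± 3.57 in Mock (log2 difference 0.87 for I vs M1, adjusted p = 6.38e-10). The antiviral gene Mx2 had 36.5 ± 0.698 FPKM in I, 22.4 ± 0.487 in M1 and 50.8 ± 1.16 in Mock (0.68, adjusted p = 1.32e-08). Ifit1 had 20.3 ± 0.849 FPKM in I, 12.3 ± 0.65 in M1 and 84.5 ± 0.663 in Mock (0.68, adjusted p = 1.67e-07). In each of these the I level stayed below the Mock level, whereas that of Cxcl10 did not. Oasl1 went the other way with iodide, with 179 ± 1.69 FPKM in I and 330 ± 5 in M1 (−0.88, adjusted p = 3.22e-10).

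Across the 10 pathway lists, 126 distinct genes other than the members were tested. In I vs M1 0 of the 126 had a higher signed log2 difference than Cxcl10, and 1, Zfp36l1, had a higher one than Cxcl11. Some falls were larger in size. Ccl6 at −2.72 went beyond the 2.55 of Cxcl10, and Ccl22 at −2.34, Ccl2 at −1.99 and Mmp9 at −1.99 beyond the 1.82 of Cxcl11. In M1 vs Mock 3 of them lay below Cxcl10, namely Ifi44l, Ifit1 and Ifnb1, and 11 lay above Cxcl11. Zfp36l1 encodes a protein that binds AU-rich elements and speeds the decay of mRNAs that carry them. It had 68.8 ± 1.69 FPKM in I, 17.8 ± 0.352 in M1 and 28.7 ± 1.06 in Mock, so that I stood above both other groups. It rose in I vs M1 by 1.89 on the log2 scale (adjusted p = 2.44e-11) and fell in M1 vs Mock by 0.66 (adjusted p = 5.37e-09). Its relative Zfp36 rose in both steps, with 263 ± 1.45 FPKM in I, 131 ± 1.55 in M1 and 35.7 ± 0.566 in Mock (adjusted p = 8.68e-14 and 1.13e-10). Of the 12 genes on decay of AU-rich mRNAs, 2 rose and 10 fell in M1 vs Mock (4 rose with RLE scaling). Between I and M1 6 rose and 3 fell. The shares over all tested genes were 30.5% up and 55.3% down in M1 vs Mock, and 24.9% and 39.3% in I vs M1.

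**Figure D4:**
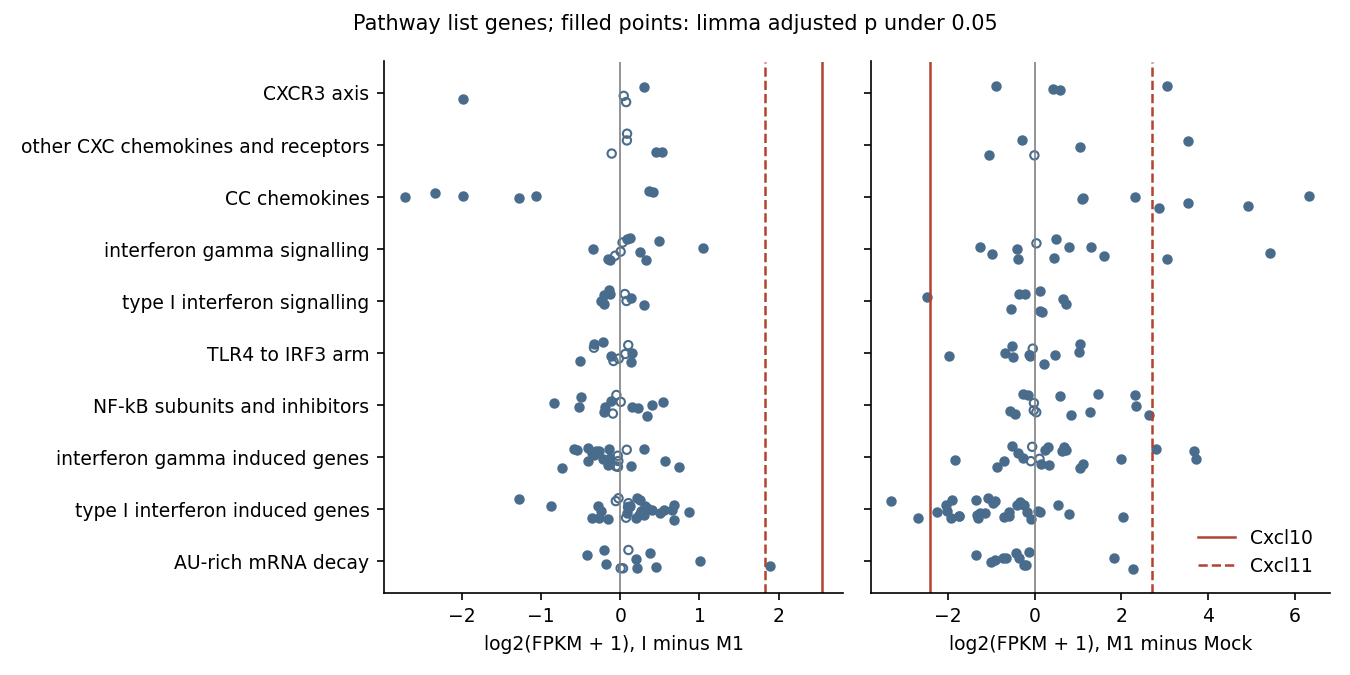
Differences on the log2(FPKM + 1) scale for the tested genes of each pathway list (1 point a gene, filled where the limma adjusted p was under 0.05), as I minus M1 on the left and M1 minus Mock on the right. Red lines mark Cxcl10 (solid) and Cxcl11 (dashed). In the left plot no list gene lies to the right of Cxcl10 and 1 lies to the right of Cxcl11, while some falls are larger in size.

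Other chemokine genes were set beside the pair. Of 7 tested CC chemokine genes all 7 rose in M1 vs Mock, with log2 differences of 1.10 to 6.33. Ccl22, which is among them, passed the filter on low values only through M1 and I libraries. In Mock it had 2 fragments a library, so its call is limited as that of Cxcl9 is. With iodide 2 rose and 5 fell. Among all tested genes 30.5% rose and 55.3% fell in M1 vs Mock, and 24.9% and 39.3% in I vs M1. The monocyte attractant Ccl2 had 101 ± 1.16 FPKM in I, 404 ± 12.3 in M1 and 4.04 ± 0.192 in Mock, and Ccl5, a T cell attractant also driven by IRF3, had 534 ± 21 FPKM in I, 1120 ± 27 in M1 and 36.1 ± 4.23 in Mock. Both rose in M1 (adjusted p = 1.9e-16 and 1.6e-13) and fell in I vs M1 (adjusted p = 1.91e-11 and 2.01e-07). The neutrophil attractant Cxcl2 had 639 ± 89 FPKM in I, 598 ± 9.92 in M1 and 50.5 ± 3.07 in Mock. Its I minus M1 difference was 0.09 (adjusted p = 0.395), or 0.21 (adjusted p = 0.00287) without I replicate 2, which lay lowest at 537 FPKM. Of the 5 tested genes of the other CXC chemokines and receptors, 2 rose and 2 fell in M1 vs Mock and 2 rose in I vs M1, both of them the receptor genes Cxcr4 and Cxcr5. On the log2(FPKM + 1) scale, Cxcr5 had the largest I vs M1 rise among these other CXC and CC chemokine and receptor genes. It was 0.52, below 1.82 for Cxcl11 and 2.55 for Cxcl10. That scale understates low genes such as Cxcr4, with means of 0.663 FPKM in I and 0.211 in M1. Cxcr4 passed the filter on low values only through I replicates 1 and 2 and Mock replicate 3. In M1 it had 5 to 9 fragments a library, so its call carries the same limit. As a ratio of means, I over M1 was 3.14 for Cxcr4, 1.73 for Cxcr5 and 3.67 for Cxcl11.

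The genes nearest in course to each member were found by the root mean square difference between group means of log2(FPKM + 1), each gene centred on its mean over the 3 groups. They are chosen by their values and carry no test. Nearest to Cxcl10 were Cd24a, a small glycosylated surface protein (0.352), the carbonic anhydrase gene Car2 (0.505), the ether lipid enzyme Agmo (0.515), the heparan sulfate sulfotransferase Hs3st3b1 (0.52) and the AP-1 family repressor Jdp2 (0.541). Cd24a had mean FPKM of 5.74 in I, 1.09 in M1 and 7.09 in Mock, and Car2 had 1112 in I, 322 in M1 and 739 in Mock. All 5 were low in M1, with smaller swings than Cxcl10 on the log2(FPKM + 1) scale. As a ratio of mean FPKM, Mock over M1 was 6.5 for Cd24a and 5.67 for Cxcl10. Nearest to Cxcl11 were the glycolysis activator Pfkfb3 (0.169), the transglutaminase Tgm1 (0.265), the early response gene Ier3 (0.275), the miR-155 host gene Mir155hg (0.34) and the stress response gene Gadd45b (0.367). Pfkfb3 had mean FPKM of 217 in I, 64.2 in M1 and 6.63 in Mock. These genes shared the rising order of Mock, M1 and I, although Tgm1 had only 2 to 4 fragments a library in Mock. Neither member was near the other: Cxcl11 took rank 11095 of 11155 by likeness to Cxcl10, at 2.27, while Cxcl9 took rank 50 by likeness to Cxcl11, at 0.772.

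**Figure D5:**
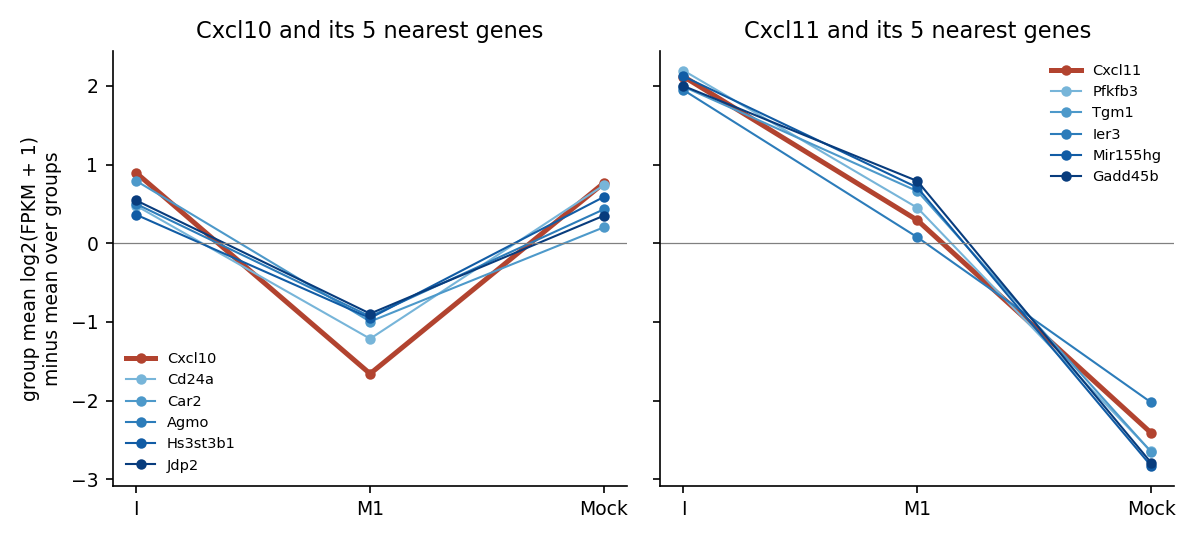
Group means of log2(FPKM + 1), centred on the mean over groups, for Cxcl10 (left, red) and Cxcl11 (right, red) with the 5 genes nearest to each (blue), in I, M1 and Mock. The left curves form a dip in M1 and the right curves are highest in I and lowest in Mock.

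The libraries held 17431070 to 25470730 fragments, and log2 values of libraries within a group correlated across genes at 0.9968 to 0.9973 (Pearson; genes are not replicates). All 10 macrophage markers are in the files, with summed FPKM of 2450 to 2570 in I, 3350 to 3460 in M1 and 4720 to 4810 in Mock. The sum is weighted by Lyz2, with 675 ± 23.7 FPKM in I, 1138 ± 31.4 in M1 and 3155 ± 42.6 in Mock, and the markers did not move together. Of the 9 tested, Adgre1, Itgam, Cd14 and Cd68 rose and 5 fell in M1 vs Mock, and Csf1r and Ptprc rose and 7 fell in I vs M1. Beside these counts, 30.5% of all tested genes rose and 55.3% fell in M1 vs Mock, and 24.9% and 39.3% in I vs M1. Of 7 T and natural killer cell, 5 neutrophil and 5 epithelial markers 0 are in the files, and of the B cell list only Pax5, at most 0.0533 FPKM in any library. Of 8 fibroblast and endothelial markers Pecam1 and Kdr are, with a sum of 3.41 to 3.57 FPKM in I, 1.56 to 1.98 in M1 and 0.108 to 0.15 in Mock. In I and M1 the sum is nearly all Pecam1, with means of 3.46 FPKM in I, 1.69 in M1 and 0.0729 in Mock. Kdr ran the other way, with 0.00933 FPKM in I, 0.0206 in M1 and 0.0627 in Mock. The part of other cell types in the results was not tested. The median tested gene was lower by 0.232 in M1 vs Mock and by 0.065 in I vs M1 on the log2 scale, shifts that RLE scaling reduced to 0.003 and 0.007. With RLE scaling 4739 genes rose and 4817 fell in M1 vs Mock, against 3405 and 6166 as deposited, and 3511 rose and 3509 fell in I vs M1, against 2775 and 4382.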

How the data were processed

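Poly(A) RNA of RAW264.7 cells was sequenced, with 3 libraries each for I, M1 and Mock. The deposited values were read as FPKM from the numbers themselves, since no file header names a unit. The submitters' processing notes name fastp 0.20.1, HISAT2 2.2.1, featureCounts 2.0.1 and GRCm38. No source used here gives their settings, the strand mode or the annotation. Every one of the 12474 rows is above 0 in all 9 libraries, and genes with a 0 are not analysed here.

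Exon lengths from GENCODE vM21 matched 12204 rows (97.8%). FPKM times length and library size gave whole fragments, within 0.05, for 98.4% to 98.6% of values. limma 3.58.1 (R 4.3.3) was fitted to log2(FPKM + 1) of the 11156 rows that reached 0.5 FPKM in at least 3 libraries, with a term per group and a trend in the prior variance. A gene "rose" or "fell" where its Benjamini-Hochberg adjusted p over all tested genes was under 0.05. Differences on this scale understate the change of low genes.

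The members and lists were chosen with earlier results of these data known. Named genes are the members, the measured CXCR3 axis genes and neighbours, the 5 genes nearest to each member, and up to 4 genes per other list with the smallest p in I vs M1 and in M1 vs Mock, of which part are named. Cell type markers were named from separate lists outside this rule. Rel also falls outside it and was chosen after its values were seen. Alternatives were a pseudocount of 0.1, no filter, limma-voom on recovered fragments, RLE and quantile scaling, a replicate block and leaving out each library.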

Additional observations from a re-analysis of the deposited data

How the results depend on the processing

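The direction of both members in all 3 comparisons was the same under every alternative run. The Cxcl10 differences (log2 scale; −2.42 in M1 vs Mock, 2.55 in I vs M1, 0.13 in I vs Mock) were −2.14, 2.63 and 0.49 with RLE scaling, and quantile scaling gave 2.49 for I vs M1 and 0.04 for I vs Mock. A pseudocount of 0.1 gave −2.50 and 2.62 for the first and second of these, and limma-voom −2.50 and 2.63. The Cxcl11 differences in that order (2.70, 1.82 and 4.53) were 2.91, 1.90 and 4.82 with RLE, 3.12, 1.87 and 4.99 with a pseudocount of 0.1, and 3.19, 1.88 and 5.07 with limma-voom. Quantile scaling gave Cxcl11 3.00 and 4.81 in M1 and I against Mock. Principal transcript lengths moved the mean ratio of Cxcl10 to Cxcl11 to 1.05 in I (1.22 with summed exons) and 0.618 in M1 (0.72). Leaving out each library gave −2.44 to −2.39, 2.54 to 2.56 and 0.11 to 0.16 for Cxcl10, and 2.64 to 2.78, 1.80 to 1.84 and 4.47 to 4.60 for Cxcl11. It also gave 1 to 3 genes that rose from TLR4 to IRF3 and 0 to 1 other CXC genes that fell, both in I vs M1.

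List counts moved by over 1.5 times only with the 2 scalings and in these leave-one-out counts. With RLE, CC chemokines that fell in I vs Mock numbered 0 (1 as deposited). Interferon gamma signalling had 1 fall (3) in I vs M1, also with quantile scaling, and 2 (4) in I vs Mock with RLE. Type I signalling had 3 falls (5) in I vs M1 with RLE. The TLR4 arm in I vs Mock had 6 rises (3) with either scaling, and 3 falls with RLE and 2 with quantile (6). NF-kB genes in M1 vs Mock had 11 rises (7) with RLE and 2 falls (4) with either; in I vs Mock they had 11 rises (6) with RLE and 3 falls (6) with either. Type I induced genes had 9 rises (3) in I vs Mock with RLE and 3 (5) in M1 vs Mock with quantile. AU-rich decay in M1 vs Mock had 4 rises (2) with RLE and 6 falls (10) with quantile. Other CXC genes had 1 fall (2) in M1 vs Mock with quantile. Neighbours that rose were 2 (1) in M1 vs Mock and in I vs Mock with either scaling. The cause was not tested.

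Single genes changed sign by scaling. For I vs Mock with RLE these were Ccl9 at 0.18, Cd24a 0.05, Hs3st3b1 0.10, Ifnar2 0.27, Ikbke 0.30, Nfkb2 0.10, Oasl1 0.29 and Scarb2 0.23. With quantile scaling they were Car2 at −0.05, Cd24a 0.10, Hs3st3b1 0.09, Ifnar2 0.13, Ikbke 0.22 and Scarb2 0.12. For M1 vs Mock they were Igtp at 0.02, Mapkapk2 0.10, Scarb2 0.19 and Stat2 0.06 with RLE, and Cxcr5 at 0.34 and Scarb2 0.11 with quantile. Irf8 in I vs M1 was at 0.02 with quantile. Same-numbered libraries did not deviate together (correlations of −0.12 to 0.05). This gives no sign of pairing by number but cannot exclude it, since libraries within a group differ little. A replicate block, with 2713 genes that rose and 4319 that fell in I vs M1, changed no call of a gene named by the rule above. Rel and most cell type markers were not part of that check. Depth limits Ccl22, Cxcl9 and Tgm1 in Mock, Ifnb1 in I and M1, and Cxcr4 in M1, each at under 10 fragments a library.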
